A study of Mus musculus with 6 samples.

Results

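The plasminogen activator system was followed in TGFβ-treated mouse lung fibroblasts (LFs) through 7 genes chosen by name: the activators Plau and Plat, the receptors Plaur and Plgrkt, and the serpins Serpine2, Serpinf1 and Serpinb2. They are 7 of the 55364 genes listed in the count tables, and all of them had reads, but only 5 were abundant enough to be tested. Plau and Serpinb2 were not. The libraries came from wt LFs (n = 3) and from LFs labelled TKS5 KO (n = 3), and both groups were differentiated in serum-free medium with 10 ng/ml TGFβ-1 for 24 h, so that untreated LFs are not part of the comparison. The labels name the second genotype a knockout, whereas the paper describes heterozygous Tks5+/- mice on a C57Bl6/J background, from which LFs were used with those of wt littermates of young adult age. The paper describes its samples in general as biologically independent, but the labels do not say whether the 3 libraries of a group were separate cultures or animals, and if they were not, the p-values measure only the spread between these libraries.

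Plasmin is the broad-specificity protease that dissolves fibrin and cleaves matrix proteins and latent growth factors. Its precursor, plasminogen, circulates in blood and is cleaved by the urokinase-type (Plau) and the tissue-type (Plat) activator, most efficiently when plasminogen and urokinase are docked on cell surface receptors. Serpins, which trap a protease in an irreversible complex, restrain the activators and plasmin. In the lung, low plasmin activity accompanies fibrosis, and fibroblasts both make the inhibitors and use pericellular proteolysis to move through matrix.

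Quant-Seq primes at the poly(A) tail, so that each read counts a transcript end. The libraries held 1344507 to 2369882 counts. Their values are given as raw counts and as CPM (counts scaled to a common library size, with TMM factors), on which 3 counts, the limit that a count of 0 allows, are 1.11 to 1.93 CPM; such limits and the intervals of ratios of counts cover counting error only. Sh3pxd2a, which encodes TKS5, was not lower in the libraries labelled TKS5 KO: counts were 205, 190 and 284 in the wt libraries, in the order of their replicate numbers, and 238, 258 and 260 in the others (log2 fold change 0.29, standard error 0.20, edgeR adjusted p = 0.249). The paper, in contrast, reports reduced Tks5 mRNA in Tks5+/- LFs by Q-RT-PCR, and describes alleles from which an exon is deleted. The labels do not say which allele these LFs carried, and whether counts of transcript ends register it was not tested. The counts were therefore not taken as a test of the genotype, and the cause of the mismatch was not tested. The label was kept as a name throughout. Fibroblast markers (10 genes) summed to 5150 to 6510 CPM in wt libraries and to 5990 to 9210 CPM in those labelled TKS5 KO, with 4 genes called higher and 2 (Fn1 and Pdgfrb) called lower. Macrophage markers (18 genes, of which 6 were called lower and 0 higher) summed to 422 to 2600 CPM in wt libraries, with the highest value in wt replicate 3, and to 155 to 172 CPM in the libraries labelled TKS5 KO, where Adgre1 and Ptprc were at 0 in each. The sums of endothelial markers (11 genes, of which 5 were tested, 4 called lower and 0 higher) were 121 to 155 and 45.6 to 61.4 CPM. Pecam1, Tek and Vwf were at 0 in every library labelled TKS5 KO. In wt libraries, however, Tek had only 5, 1 and 6 counts and Vwf 0, 1 and 9. Ramp2 went the other way, from 25.8 to 31.7 CPM on average (log2 fold change 0.32, edgeR adjusted p = 0.331), and was not called. Mesothelial markers (9 genes) summed to 37.5 to 51.9 and 5.63 to 15.4 CPM, and epithelial markers (10 genes) to 22.5 to 54.9 and 29.2 to 62.0 CPM. In the libraries labelled TKS5 KO nearly all of the epithelial sum was Ager, at 37.3, 60.3 and 29.2 CPM against 12.9, 9.63 and 13.0 CPM in wt libraries. Ager was called higher and Cldn4 lower, and no other gene of this list was tested. At 0 in every library labelled TKS5 KO were 8 of the 10 genes, but 5 of these had no count in any library. In wt libraries Epcam had 1 to 3 counts, Cdh1 8 to 58 and Foxj1 at most 2. The sums for 8 smooth muscle and pericyte markers were 4810 to 5730 and 6250 to 7130 CPM, with Tagln and Cnn1 called higher and 4 genes (Myh11, Des, Cspg4 and Notch3) called lower. Nnt, which is deleted in part in C57Bl6/J mice, was called lower in the libraries labelled TKS5 KO. So was the Y-linked gene Ddx3y, but not Eif2s3y (log2 fold change -0.23, edgeR adjusted p = 0.688); Uty and Kdm5d were too low to be tested, and Xist had 0 counts in all 6 libraries. The part of these differences in the results below was not tested, and fewer cells of a type cannot be told apart from less RNA per cell.

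Of the 5 tested genes, 1 was called lower (Serpine2) and 1 higher (Plgrkt) in the libraries labelled TKS5 KO. A call needed an adjusted p below 0.05 together with at least a 1.2-fold difference. The comparison as a whole was broad: 4642 of 10346 genes tested, or 44.9%, were called, 22.8% higher (2356 genes) and 22.1% lower (2286 genes), so that a share of 40.0% of the tested members is near that of all genes. With scaling by library totals alone, the split of all called genes was 1370 higher and 3924 lower, and the median over all genes moved from -0.0457 to -0.461 on the log2 scale. The median over the 5 tested members was 0.252.

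The promoters of the genes that were called, Serpine2 and Plgrkt, are shown for the sequence around the start of each. Both are RefSeq windows of GRCm38.p6 from 250 bases before to 50 bases after a transcript start, written 5′ to 3′ on the strand of the gene, and both lie inside the longer gene interval of the GENCODE annotation. Capitals mark GC boxes (GGGCGG) in Serpine2 and CCAAT boxes (CCAAT or its reverse complement) in Plgrkt.
Serpine2, chr1:79858616-79858915, minus strand: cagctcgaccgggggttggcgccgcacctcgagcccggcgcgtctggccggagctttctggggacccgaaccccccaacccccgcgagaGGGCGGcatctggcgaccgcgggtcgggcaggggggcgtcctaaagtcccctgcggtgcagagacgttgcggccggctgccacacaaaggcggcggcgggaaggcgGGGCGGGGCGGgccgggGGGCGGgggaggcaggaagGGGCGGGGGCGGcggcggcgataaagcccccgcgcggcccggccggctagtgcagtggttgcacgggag
Plgrkt, chr19:29361822-29362121, minus strand: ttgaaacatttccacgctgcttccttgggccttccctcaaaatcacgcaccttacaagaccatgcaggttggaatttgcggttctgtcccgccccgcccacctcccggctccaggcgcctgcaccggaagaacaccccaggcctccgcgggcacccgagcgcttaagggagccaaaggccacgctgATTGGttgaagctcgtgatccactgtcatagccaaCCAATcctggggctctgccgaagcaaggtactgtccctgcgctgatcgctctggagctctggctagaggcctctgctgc
The Serpine2 window is 77.7% GC and holds 6 GC boxes, no CCAAT box and 1 CAGAC, the short SMAD-binding sequence. The Plgrkt window is 60.7% GC and holds 2 GC boxes, 2 CCAAT boxes and no CAGAC. Searched on both strands, GGGCGG is present at least once in 35.7%, CCAAT in 37.4% and CAGAC in 49.6% of the 32851 RefSeq promoter windows of the same length. The presence of any of these sequences is therefore not rare. The share of windows with as many as 6 GC boxes or 2 CCAAT boxes was not computed. Windows were matched for 5 of the 7 members: Plaur has 3 GC boxes and 1 AP-1 sequence (TGANTCA, in 7.81% of promoters), and Serpinf1 has 3 CCAAT boxes and 2 CAGAC. The windows of both start sites of Serpinb2 overlap and hold the same AP-1 sequence and the same TATAAA, which is in 13.6% of promoters. Relative to the first start these lie at -94 and -29, and relative to the second at -181 and -116. Plau and Plat have no entry. A match describes the letters and not a bound site.

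Among the activators, Plau, which encodes urokinase (chromosome 14, 20836660 to 20843385), was at the limit of detection. Its counts were 0, 6 and 9 in wt replicates 1, 2 and 3 and 10, 3 and 2 in TKS5 KO replicates 1, 2 and 3. The groups overlapped, with the highest value in TKS5 KO replicate 1 and none in wt replicate 1. With 15 counts in each group the ratio of TKS5 KO to wt was 1.12, with an exact 95% interval of counting error from 0.508 to 2.45. A difference of the size seen in Plgrkt is within this interval and is not excluded.

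Plat, which encodes tissue-type plasminogen activator (chromosome 8, 22757727 to 22782844), had 7, 10 and 16 counts in wt libraries and 27, 12 and 16 in the libraries labelled TKS5 KO. On the CPM scale these were 4.51, 5.35 and 5.93 against 14.8, 7.02 and 8.19. The groups did not overlap in CPM, as was the case for 53.8% of the genes tested, and TKS5 KO replicate 1 stood highest. On average Plat was at 5.26 ± 0.718 and 10.0 ± 4.20 CPM (SD, n = 3 each). The log2 fold change of 0.90 (standard error 0.42, 95% interval 0.03 to 1.78) did not pass the test (edgeR adjusted p = 0.0871). Without TKS5 KO replicate 1 the log2 fold change was 0.56 (adjusted p = 0.340), and with a correction for transcript length it passed (1.07, adjusted p = 0.0457).

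Of the receptors, Plgrkt was called and Plaur was not. Plgrkt encodes the plasminogen receptor with a C-terminal lysine, an integral membrane protein that binds plasminogen through that residue (chromosome 19, 29348599 to 29367390). Its counts were 20, 21 and 26 in wt libraries and 42, 43 and 51 in the libraries labelled TKS5 KO. Levels were 12.9, 11.2 and 9.64 CPM against 23.1, 25.2 and 26.1 CPM, so that the lowest library labelled TKS5 KO lay well above the highest wt library. Plgrkt rose 2.22-fold, from 11.3 ± 1.62 CPM (SD, n = 3) to 24.8 ± 1.56 CPM (SD, n = 3), with a fitted log2 fold change of 1.15 (standard error 0.29, 95% interval 0.54 to 1.76, edgeR adjusted p = 0.00287). Of the genes tested, 12.3% had a higher log2 fold change.

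The call of Plgrkt depends on how transcript length is treated. Its longest transcript has 1020 bases against a median of 3204 bases, and across 10339 genes the log2 fold change falls with transcript length (Spearman's rho -0.397, a description over genes, which are not independent). When the length trend of each library was removed, the log2 fold change was 0.60 (adjusted p = 0.112), and with GC content as well it was 0.25 (adjusted p = 0.542). It remained positive in all 20 alternatives. The start of Cd274, on the opposite strand, lies 64 bases beyond the annotated start of Plgrkt, and Cd274 had at most 12 counts in a library.

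Plaur encodes the urokinase receptor, which is anchored to the membrane by a lipid and gathers urokinase at the cell surface and at integrin contacts (chromosome 7, 24462484 to 24475968). It had 73, 72 and 111 counts in wt libraries and 93, 95 and 86 in the libraries labelled TKS5 KO, or 47.0, 38.5 and 41.2 CPM against 51.0, 55.6 and 44.0 CPM. The groups overlapped, since wt replicate 1 was above TKS5 KO replicate 3. With 42.2 ± 4.33 against 50.2 ± 5.83 CPM (SD, n = 3 each) the log2 fold change was 0.25 (standard error 0.22, edgeR adjusted p = 0.373), and the exact permutation test gave p = 0.2. The 95% interval, from -0.21 to 0.71, does not reach a change as large as the 1.15 of Plgrkt. Scaling by library totals alone turned the sign (-0.17, adjusted p = 0.561). Relative to the median of all genes the log2 fold change was 0.29 under that scaling and 0.30 in the reported fit.

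Of the serpins, Serpine2 was called. It encodes protease nexin-1, an extracellular inhibitor of thrombin, urokinase, tissue-type activator and plasmin that fibroblasts secrete (chromosome 1, 79794197 to 79861180). Serpine2 had 466, 472 and 540 counts in wt libraries and 129, 119 and 96 in the libraries labelled TKS5 KO. These were 299.9, 252.6 and 200.2 CPM against 70.8, 69.6 and 49.1 CPM, and the groups lay far apart although wt replicate 1 was the highest and wt replicate 3 the lowest of a wide wt range. Serpine2 fell from 250.9 ± 49.9 CPM (SD, n = 3) to 63.2 ± 12.2 CPM (SD, n = 3), which was 3.97-fold lower (log2 fold change -1.99, standard error 0.23, 95% interval -2.46 to -1.52, edgeR adjusted p = 4.89e-07). The exact permutation p of 0.1 is the smallest that 3 against 3 libraries allow. Only 3.13% of the genes tested had a lower log2 fold change. Serpine2 was called lower under each of the 20 alternatives, with log2 fold changes from -2.40 to -1.80. Without wt replicate 3, the library with the highest sum of macrophage markers, it was at -2.13 (adjusted p = 2.93e-08). Macrophage markers still summed to 487 and 422 CPM in wt replicates 1 and 2, against 155 to 172 CPM in the libraries labelled TKS5 KO. The part of this difference in the fall of Serpine2 was not tested.

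Serpinf1 encodes pigment epithelium-derived factor, a secreted serpin that has no inhibitory activity against proteases and is known as an inhibitor of vessel growth (chromosome 11, 75409769 to 75422701). Its counts were 380, 411 and 678 in wt libraries and 419, 287 and 324 in the libraries labelled TKS5 KO, or 244.6, 219.9 and 251.4 CPM against 229.9, 167.9 and 165.8 CPM. TKS5 KO replicate 1 lay within the wt range and the other two below it. The means were 238.6 ± 16.6 and 187.9 ± 36.4 CPM (SD, n = 3 each), and the log2 fold change of -0.35 (standard error 0.20, 95% interval -0.77 to 0.08) did not pass the test (edgeR adjusted p = 0.175). It passed under 3 of the 20 alternatives: -0.75 with library totals alone (adjusted p = 0.00606), -0.63 with limma on the authors' normalized counts (adjusted p = 0.0197) and -0.58 with the length correction (adjusted p = 0.0274). Under library totals alone the value relative to the median of all genes was -0.29, against -0.30 in the reported fit.

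Serpinb2 encodes plasminogen activator inhibitor 2, which is largely kept inside cells and is typical of activated macrophages (chromosome 1, 107511423 to 107535478). It had 1, 0 and 6 counts in wt libraries and 1, 1 and 2 in the libraries labelled TKS5 KO, and wt replicate 3 held most of the wt counts. The ratio of TKS5 KO to wt was 0.637, with an exact 95% interval of counting error from 0.137 to 2.51. Serpinb10, which overlaps it on the same strand, had 0 counts.

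**Figure D1:**
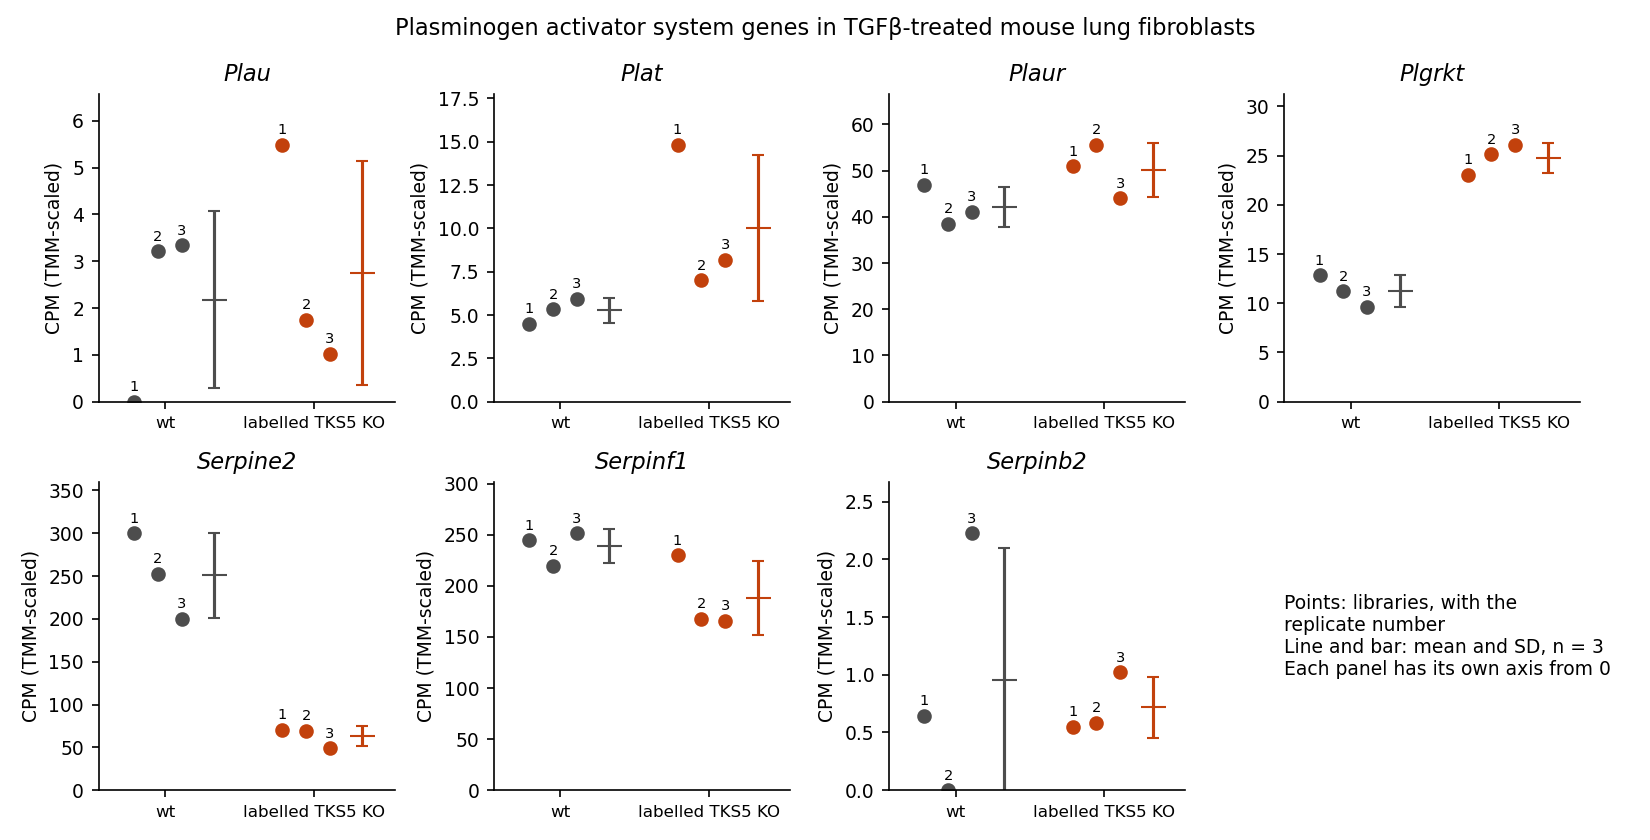
Level of each of the 7 genes in the 6 libraries, in CPM of the TMM-scaled library size on a linear axis from 0 (own axis per gene); points are libraries with their replicate number, lines and bars the mean and SD (n = 3). Serpine2 is between 200.2 and 299.9 CPM in wt and between 49.1 and 70.8 CPM in the libraries labelled TKS5 KO, Plgrkt and Plat lie higher in the latter without overlap, and the groups overlap for the other 4 genes.

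**Figure D2:**
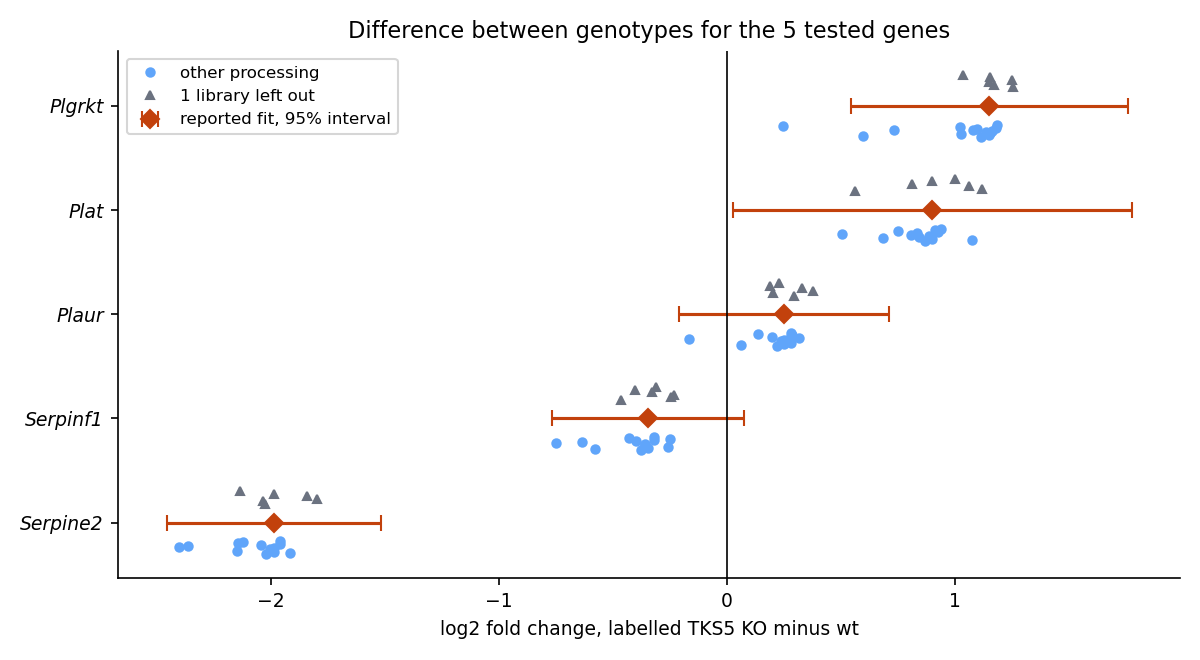
Log2 fold change (labelled TKS5 KO minus wt) of the 5 tested genes with its 95% interval (diamonds), with the values under other processing (circles) and with 1 library left out (triangles). The points of Serpine2 stay between -2.40 and -1.80, those of Plgrkt reach down to 0.25 and those of Plaur cross 0 once, at -0.17.

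Ratios of raw counts of 2 genes within a library do not depend on how libraries are scaled, and they are given here as values with no test. Serpine2 counts made up 49.2, 47.6 and 39.0% of the counts of all 7 genes in wt libraries and 17.9, 21.2 and 16.6% in the libraries labelled TKS5 KO. Serpinf1 counts per Serpine2 count were 0.815, 0.871 and 1.26 in wt libraries and 3.25, 2.41 and 3.38 in the libraries labelled TKS5 KO. Serpinf1 thus had fewer counts than Serpine2 in wt replicates 1 and 2, and more in wt replicate 3 and in each library labelled TKS5 KO. Plaur counts per Serpine2 count were 0.157, 0.153 and 0.206 against 0.721, 0.798 and 0.896, and Plgrkt counts per Serpine2 count were 0.0429, 0.0445 and 0.0481 against 0.326, 0.361 and 0.531. The fall of Serpine2 is part of each of these ratios. Without Serpine2 the separation was smaller: Plaur counts per Serpinf1 count were 0.192, 0.175 and 0.164 against 0.222, 0.331 and 0.265, also without overlap. The share of ratios without overlap was not computed for other gene pairs. Among single genes tested, 53.8% did not overlap in CPM, so that such separation was common.

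**Figure D3:**
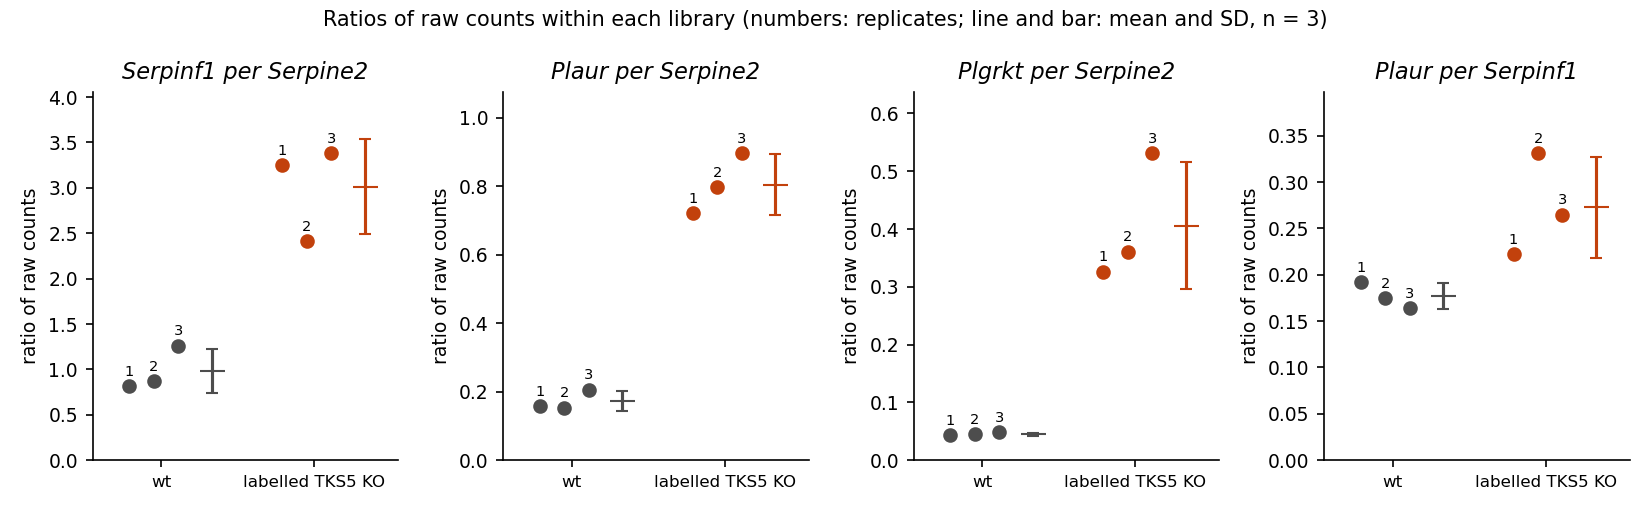
Ratios of raw counts within each library on linear axes from 0, with replicate numbers at the points and the mean and SD (n = 3) beside them. The 3 libraries labelled TKS5 KO lie above the 3 wt libraries in each panel, by a mean of 3.01 against 0.981 for Serpinf1 per Serpine2, 0.805 against 0.172 for Plaur per Serpine2 and 0.273 against 0.177 for Plaur per Serpinf1.

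The other genes of the system were taken from 3 lists. Of the 13 genes for further receptors of plasminogen or its activators and their partners, 12 were tested, 3 were called higher and 4 lower (58.3%, against 44.9% of all genes tested), and their median log2 fold change was -0.0844. Of the 3 genes that rose, S100a10 and Anxa2, the subunits of the annexin A2 tetramer that binds plasminogen and tissue-type activator, went from 133.0 ± 10.1 to 283.5 ± 36.5 CPM and from 601.6 ± 38.2 to 1082 ± 238.0 CPM (SD, n = 3 each). Their log2 fold changes were 1.09 (standard error 0.20, edgeR adjusted p = 1.43e-04) and 0.85 (standard error 0.21, edgeR adjusted p = 0.00246). S100a10 did not pass with the length correction (0.44, adjusted p = 0.0737) or with GC content and length (0.26, adjusted p = 0.285), and Anxa2 did not with library totals alone (0.42, adjusted p = 0.0766) or on the authors' normalized counts (0.22, adjusted p = 0.379). Eno1, a glycolytic enzyme that also binds plasminogen at the cell surface, had a log2 fold change of 1.23 (standard error 0.30, edgeR adjusted p = 0.00199), but it may share reads with its near-identical copy Eno1b, which had 16 to 30 counts in each library beside 18 to 75 of Eno1, so its value is uncertain.

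Of the 4 genes that fell, Lrp1, the endocytic receptor that takes up serpin-protease complexes, protease nexin-1 complexes among them, fell from 124.0 ± 11.7 to 45.4 ± 13.6 CPM (SD, n = 3 each; log2 fold change -1.45, standard error 0.23, edgeR adjusted p = 3.19e-05), and did not pass with the joint correction for GC content and length (-0.36, adjusted p = 0.202). Itgb5, the β5 integrin subunit, fell from 194.2 ± 11.7 to 90.1 ± 15.1 CPM (SD, n = 3 each; log2 fold change -1.11, standard error 0.21, edgeR adjusted p = 1.56e-04). The remaining genes that fell lie outside the rule for named genes and are given to complete the count of 4: Itgav (-0.84, adjusted p = 0.00482) and Itgb3 (-1.26, adjusted p = 0.00864), the αv and β3 integrin subunits. Other endocytic receptors of the list did not pass: Vldlr had a log2 fold change of 0.78, Igf2r of 0.11 and Mrc2 of -0.31. With the length correction neither Itgav nor Itgb3 passed (-0.36, adjusted p = 0.205, and -0.88, adjusted p = 0.0662), and Itgb3 did not pass without wt replicate 3 (-1.03, adjusted p = 0.0616). The integrin partner Itgb1 had a log2 fold change of 0.09 (95% interval -0.34 to 0.52), and Vtn, the gene of vitronectin itself, had no count.

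Of the 12 genes of the list of other inhibitors, 5 were tested, 1 was called higher and 1 lower (40.0%, against 44.9% of all genes tested), with a median of 0.346. Serping1, the C1 inhibitor, which blocks complement and contact proteases and to a lesser degree plasmin, fell from 357.2 ± 61.6 to 115.7 ± 34.3 CPM (SD, n = 3 each; log2 fold change -1.63, standard error 0.23, edgeR adjusted p = 6.82e-06), and was called under each of the 20 alternatives. Tfpi, the inhibitor of the tissue factor pathway, was at 42.5, 50.8 and 43.8 CPM in wt libraries and at 48.3, 80.8 and 77.8 CPM in the libraries labelled TKS5 KO. The groups overlapped, and the log2 fold change of 0.59 (standard error 0.23, edgeR adjusted p = 0.0413) did not pass under 13 of the 20 alternatives, which included the fits without wt replicates 1, 2 or 3 and without TKS5 KO replicates 2 or 3 (adjusted p = 0.111, 0.0656, 0.107, 0.130 and 0.113). A2m, Pzp and Cpb2 had no count.

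Of the 15 genes of plasminogen, its substrates and coagulation partners, 6 were tested, 2 were called higher and 3 lower (83.3%, against 44.9% of all genes tested), with a median of -0.507. Plg, the gene of plasminogen, Hgfac and the fibrinogen genes Fga, Fgb and Fgg had no count in any library, which leaves room for at most 1.11 to 1.93 CPM in each. F3, tissue factor, the cellular trigger of coagulation, had 203, 236 and 249 counts in wt libraries and 579, 552 and 232 in the libraries labelled TKS5 KO, where replicate 3 lay within the wt range. Its log2 fold change was 1.12 (standard error 0.32, edgeR adjusted p = 0.0109), and it did not pass without TKS5 KO replicate 1 (0.98, adjusted p = 0.0593) or 2 (0.93, adjusted p = 0.0592). It also did not pass with library totals alone (0.71, adjusted p = 0.0827), on the authors' normalized counts (0.73, adjusted p = 0.0850), with the length correction (0.90, adjusted p = 0.0525) or with GC content and length (0.54, adjusted p = 0.267). Thbd and Procr, the receptors for thrombin and for protein C on the anticoagulant side, had log2 fold changes of 0.68 (standard error 0.23, edgeR adjusted p = 0.0198) and -0.81 (standard error 0.27, edgeR adjusted p = 0.0161). With library totals alone Thbd did not pass (0.26, adjusted p = 0.359), nor did Procr on the authors' normalized counts (-0.68, adjusted p = 0.0547). Pdgfd and Pdgfc, growth factors that are released from their latent form by urokinase and tissue-type activator respectively, had log2 fold changes of -1.51 (standard error 0.43, edgeR adjusted p = 0.00696) and -0.83 (standard error 0.33, edgeR adjusted p = 0.0430).

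Each of these 5 calls was lost when at least 1 of the libraries was left out. Without wt replicate 3, in which Procr was at 114.2 CPM against 56.0 and 57.3 CPM in the other wt libraries, Procr was at -0.38 (adjusted p = 0.259), Pdgfc at -0.50 (adjusted p = 0.324) and Thbd at 0.63 (adjusted p = 0.0675), and 2 genes of the list were called. Pdgfd did not pass without wt replicate 2 (-1.05, adjusted p = 0.101). Thbd did not pass without wt replicate 1 (0.65, adjusted p = 0.0573) or TKS5 KO replicate 2 (0.49, adjusted p = 0.115), nor did Procr without TKS5 KO replicate 1 (-0.81, adjusted p = 0.0543) or 3 (-0.63, adjusted p = 0.100). Pdgfc did not pass in 14 of the 20 alternatives, and of the 6 fits with a library left out (adjusted p = 0.0268 to 0.324) it passed in that without wt replicate 1. For the members, leaving out wt replicate 3 kept 1 gene called higher and 1 lower, with Plgrkt at 1.04 (adjusted p = 0.0199).

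**Figure D4:**
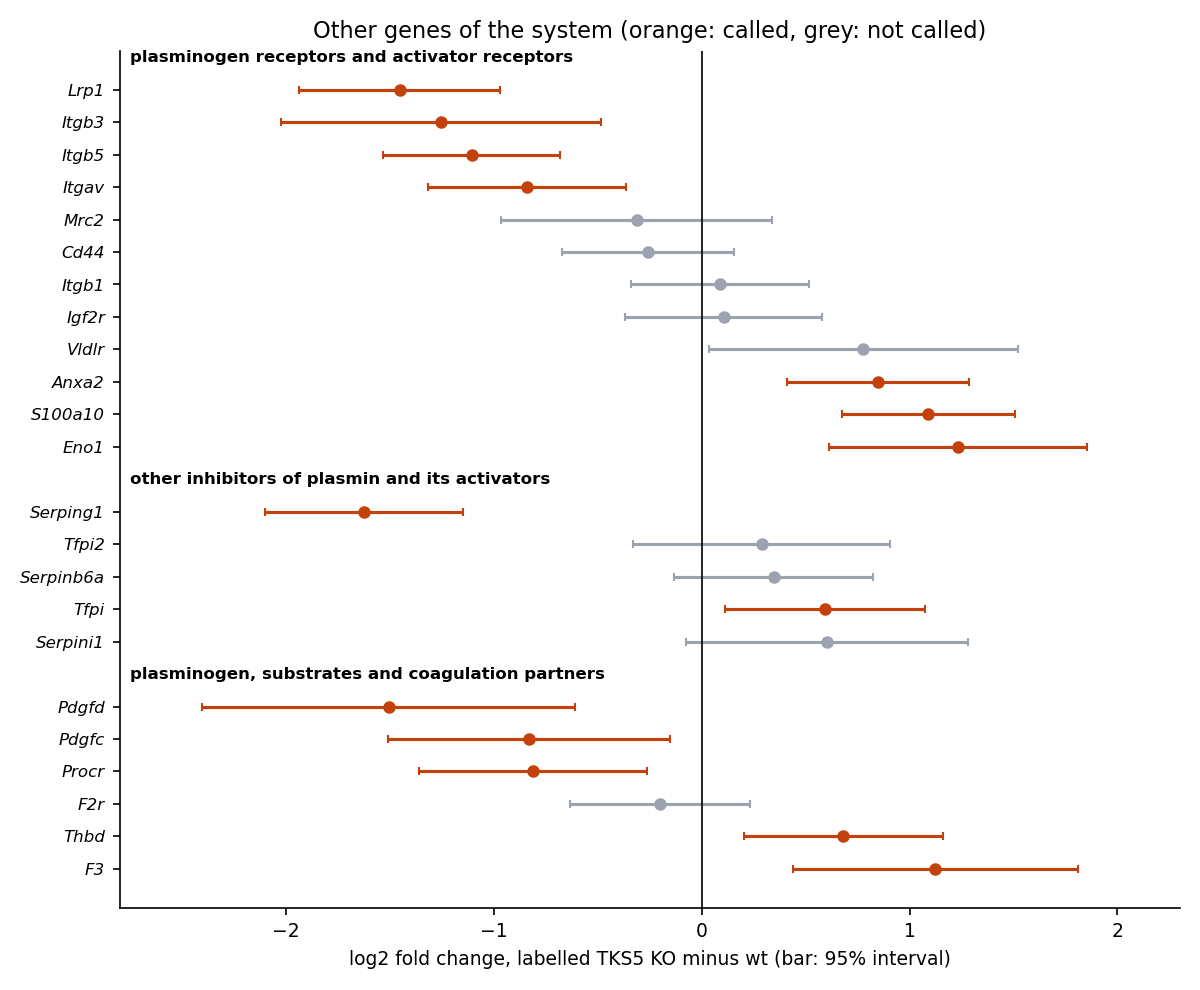
Log2 fold change (labelled TKS5 KO minus wt) and 95% interval of the tested genes of the 3 lists, with called genes in orange and others in grey. Lrp1 and the integrin genes Itgav, Itgb3 and Itgb5 lie below 0, S100a10, Anxa2 and Eno1 above it, and Serping1, at -1.63, is the lowest point of all.

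The genes whose log2(CPM + 1) followed the called members most closely over the 6 libraries were looked for among all genes tested. For Serpine2 these were Gm49601, Gp1bb and Ahnak (Pearson's r 0.9989, 0.9985 and 0.998). Gm49601 and Gp1bb had nearly the same counts in every library, at most 18, and may be counting the same reads, so that they stand as 1 uncertain match. Ahnak, a very large scaffold protein gene, went from 660.0 to 208.0 CPM on average. For Plgrkt they were the ribosomal protein gene Rpl10a, Mtfr1l and Mettl9 (Pearson's r 0.9994, 0.9983 and 0.9973). A correlation over 6 libraries in 2 groups mostly records the difference between the groups, and 447 genes reached r above 0.95 with Serpine2 and 658 with Plgrkt.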

How the data were processed

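Per the labels and the paper's methods, the authors trimmed Quant-Seq reads with Trim Galore, aligned them to GRCm38 with HISAT2 and then Bowtie2, and deposited raw counts per gene for each library and a table normalized with EDASeq and rounded to whole numbers, treated here as a score. The options of EDASeq, and whether counting kept to 1 strand, are not given in the sources used here. Of 55364 genes, 55104 matched GENCODE M21, 33644 had no count and 10346 passed filterByExpr. Genotypes were compared in R 4.3.3 with edgeR 4.0.16 (TMM, robust quasi-likelihood F test, Benjamini-Hochberg over all genes tested) with the study's thresholds (adjusted p below 0.05, at least 1.2-fold). Standard errors and 95% intervals come from the fit. CPM used the TMM-scaled library sizes, and two-sided exact permutation tests were run on them. The common dispersion was 0.0429. Replicates were not duplicates (chi-square per degree of freedom 3.695 to 9.613).

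The alternatives were DESeq2 1.42.0, limma-voom and limma 3.58.1 on the normalized table (pseudocount 1), a test against a fold change of 1.2, RLE, upper-quartile and no scaling, no filter, at least 10 counts in every library, corrections for GC content and transcript length (loess, span 0.5, with a prior count of 2), a replicate block, and the omission of single libraries. Named genes were all members, the called genes of each list (at most 5 with the smallest adjusted p), the 3 genes most like the called members, and Sh3pxd2a. The members and lists were chosen with earlier results of these data known. The alternatives of the 3 lists, of their genes and of the ratios were added after seeing the data. Tables and plots used python 3.11.15, pandas 2.3.3, numpy 2.4.6, scipy 1.17.1 and matplotlib 3.10.9. The authors' combined statistics and enrichments were not used here.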

Additional observations from a re-analysis of the deposited data

How the results depend on the processing

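Among the members, Serpine2 kept its direction and its call in each of the 20 alternatives (left-out libraries -2.13 to -1.80). Library totals alone, limma on the authors' normalized counts and the length correction each called 2 members lower instead of 1, since Serpinf1 was at -0.75, -0.63 and -0.58, and with GC content and length corrected 0 were called higher. Plgrkt was at 0.60 with the length correction and 0.25 with GC content and length, and at 1.04 to 1.26 with a library left out. Plat passed with the length correction (1.07) and was at 0.56 to 1.12 with a library left out; at 10 counts in every library it was not tested. Plaur turned to -0.17 with library totals alone (left-out libraries 0.19 to 0.38), as did Sh3pxd2a, to -0.13, and Sh3pxd2a was called higher with the length correction (0.97) and with GC content and length (1.15). Serpinf1 ran from -0.46 to -0.23 with a library left out. The number of genes called ran from 3705, with 10 counts in every library, to 5294 with library totals alone, and from 3853 to 4595 with a library left out.

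Of the list of other inhibitors, 1 gene rather than 2 was called with DESeq2, limma-voom, the test against a fold change of 1.2, upper-quartile scaling, library totals alone, 10 counts in every library and the joint GC and length correction, and 1 to 2 with a library left out. Of the coagulation list, 3 rather than 5 were called with limma on the normalized counts and with either length correction, and 2 to 4 with a library left out. On the normalized counts F3, Procr and Pdgfc lost their calls, so that those 3 include a gene not called in the reported fit. The receptor list, with 7 called genes, had 5 with the joint GC and length correction, 6 with the length correction or with 10 counts in every library, and 6 to 8 with a library left out. S100a10, Itgav and Itgb3 lost their calls with either length correction, and Lrp1 with the joint one. The totals of these corrections therefore include genes not called in the reported fit. No other direction turned among the members and the called genes of the lists; the cause of these shifts was not tested.

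With the replicate block 4668 genes were called, with 1 member higher and 1 lower. Correlations of the deviations of same-numbered libraries (-0.00101, -0.0637 and 0.082) lay within those of differently numbered libraries (-0.102 to 0.0973). With 3 libraries per group this cannot show whether the numbers mark pairs. Depth limits Plau, Serpinb2 and Plat, which had at most 27 counts in a library.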
